A study of Homo sapiens with 6 samples.

Results

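Microtubules are polymers of alpha- and beta-tubulin, and the genes described here encode their subunits and the proteins that fold, bind, stabilise or take them apart. The cells are of the SH-SY5Y line, which derives from a human neuroblastoma and has neuronal character. The set was chosen by name and holds 42 of the 60612 genes of the deposited table: 12 tubulin genes, 3 tubulin folding cofactors, 12 genes for microtubule-associated proteins (MAPs) and their relatives, 4 stathmins, 5 collapsin response mediator proteins (CRMPs), 5 genes of plus-end binding proteins, and GAP43. All 42 names were found, on 1 row each. Both groups were SH-SY5Y cells. In 3 libraries the label gives overexpression of CDKN2B-AS1, the noncoding transcript antisense to the tumour suppressor gene CDKN2B, with no word on how it was delivered, and in the other 3 it gives infection with a control vector, titled stuffer. The series title speaks of a mutation of CDKN2B-AS1, which no sample label gives. The table's columns are tagged LVx2 where overexpression is labelled and LVx1 where the control is, tags that no label explains, so a difference in handling that the tags may mark cannot be told apart from the group. Whether replicates were grown as separate cultures is not labelled, and p-values therefore rest on a spread among libraries that could be technical.

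In a growing neurite, tubulin dimers add to microtubule plus ends, MAPs coat and bundle the polymer, stathmins bind free dimers, and CRMPs deliver dimers or link them to transport. Beta-tubulins exist as isotypes from separate genes that differ mainly in the acidic tail at the carboxyl end. Neuroblastoma cells express many of the neuronal members of these families.

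Libraries held 20466583 to 48996425 fragments in labelled overexpression and 29048596 to 45102020 in control vector libraries, as recovered from the deposited values. CDKN2B-AS1 itself stood at 0.338, 0.304 and 0.353 FPKM in labelled overexpression replicates 1, 2 and 3, against 0.272, 0.288 and 0.191 FPKM in control vector replicates. FPKM gives fragments per kilobase of a gene's exon bases, scaled to the assigned fragments of the library. The ratio of the means was 1.33 (exact two-sided permutation test, p = 0.1, the smallest that 3 libraries against 3 allow), so every direction below is that of libraries labelled overexpression. On the second principal component of all tested genes, the third control vector library lay far from the rest, at 40.6 against -17.8 to 4.86 in the other 5 libraries. Adrenergic neuroblastoma markers were present, with 11 of 12 high enough to test and sums of 1107 to 1217 FPKM in labelled overexpression and 982 to 1158 FPKM in control vector libraries, though TH, the first enzyme of catecholamine synthesis, stayed below 1 FPKM in each library. Of the 5 epithelial and 5 immune markers none reached 1 FPKM in any library, and 1 of 5 Schwann and glial markers, S100B, did. Fibroblast markers summed to 48.8 to 57.3 FPKM in labelled overexpression and 47.4 to 58.9 FPKM in control vector libraries, with 0 of 5 tested past the test. Proliferation markers summed to 654 to 701 FPKM in labelled overexpression and 681 to 743 FPKM in control vector libraries, with MKI67 higher and the other 6 not past the test. Mesenchymal neuroblastoma markers summed to 88.5 to 94.5 FPKM in labelled overexpression and 50.3 to 62.2 FPKM in control vector libraries, mostly from VIM, which was higher and the 1 of 3 tested that passed. Of the 7 genes on that list, 4 stayed below 1 FPKM in each library, namely YAP1, WWTR1, PRRX1 and CD44. Neuronal maturation markers summed to 170 to 214 FPKM in labelled overexpression and 107 to 113 FPKM in control vector libraries, with NEFL and NEFM higher, 2 of 6 tested. These last 2 marker sums lay higher in labelled overexpression libraries, as did the 4 called microtubule genes described below. The other 37 tested microtubule genes were not called. What part the markers have in the results was not tested. In bulk RNA of this kind, fewer cells of a type and less RNA per cell cannot be told apart.

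Genes at 1 FPKM or more in at least 3 libraries were tested with limma-trend on log2(FPKM + 0.5), with p-values adjusted by Benjamini-Hochberg over all 13984 tested genes, and a gene was called at an adjusted p below 0.05. Log2 fold changes are labelled overexpression minus control vector on that scale, which understates the change of low genes. Of the 42 genes 41 passed the filter. MAP7 and STMN4 passed only through the labelled overexpression libraries, where they were higher, and had to differ for that reason. Called higher were 4 genes, EML4, TUBB6, MAP1B and DPYSL2, against 0.529% of all tested genes called higher, and 0 were called lower, against 0.608% (1.14% in either direction). The other 37 tested genes did not pass. The groups did not overlap in 18 tested genes with higher labelled overexpression libraries, against 14.2% of all tested genes, and in 1 gene, STMN2, with lower ones, against 9.9%. Without MAP7 and STMN4 there were 16 of 39 that lay higher. The log2 fold change was above 0 in 33 of the 41, against 56.8% of all tested genes. It was above 0 in 31 of 39 without MAP7 and STMN4. Of the 41, 28 lay above 0 with median-of-ratios factors and 25 with the length trend removed. The median log2 fold change over the 41 was 0.25, against 0.05 over all tested genes, and it was also 0.25 over all 42 without a filter on low values.

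**Figure D1:**
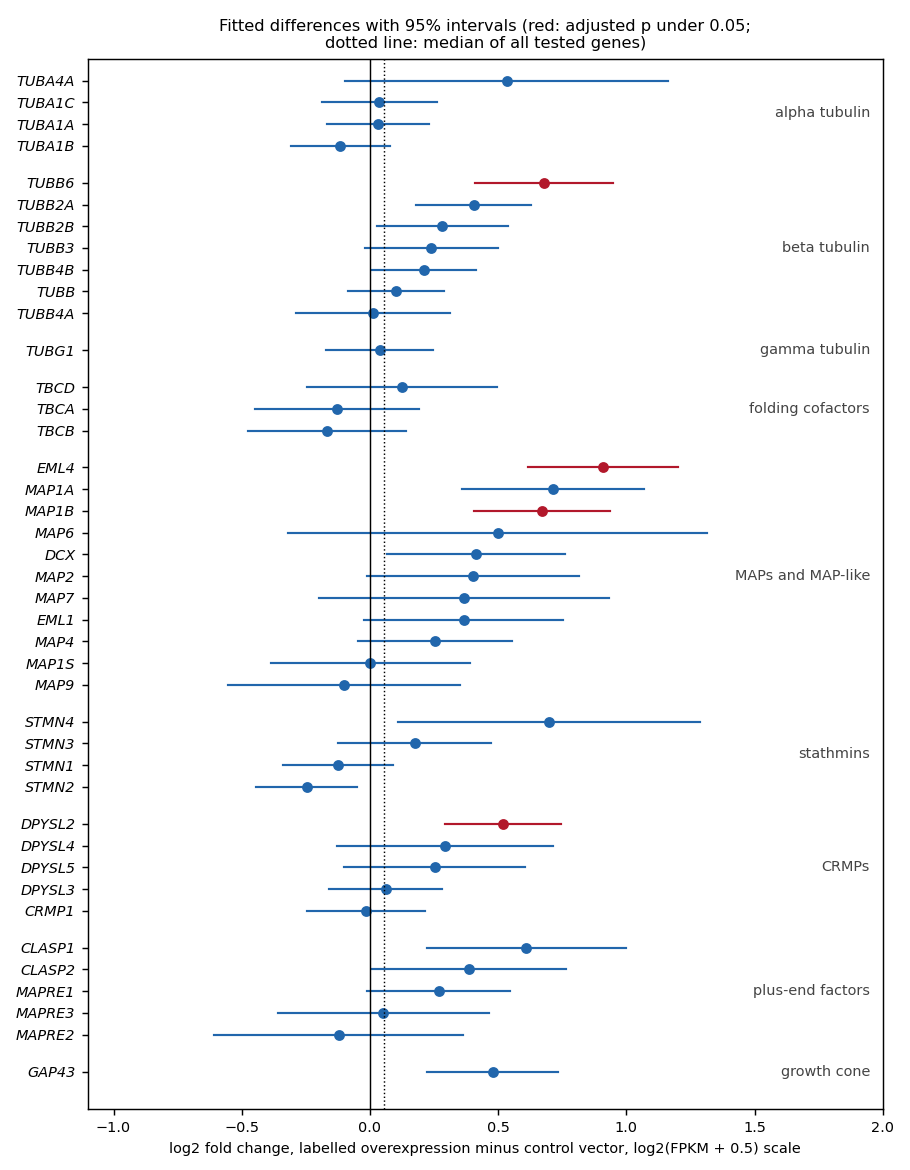
Log2 fold change (labelled overexpression minus control vector, log2(FPKM + 0.5) scale) with its 95% interval for the 41 tested genes, grouped by role; red marks an adjusted p below 0.05 and the dotted line the median of all tested genes, 0.05. Beta tubulins, MAPs and their relatives lie mostly right of the dotted line. TUBA4A and the folding cofactor TBCD lie right of it too, while the other alpha tubulins, the gamma tubulin and the other folding cofactors lie left of it.

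Leaving out a library removed calls across the whole table, not only here. Without any of labelled overexpression replicates 1, 2 or 3 or control vector replicate 2, limma-trend called 0 of all 13984 tested genes. It called 3 without control vector replicate 1, of which 0 were among these genes, and 124 without control vector replicate 3. When a library was left out, 8 to 13 of the 41 genes were higher at an unadjusted p below 0.05. There were 0 to 1 lower, and the 41 include MAP7 and STMN4. In either direction, 1665 to 2826 of the 13984 tested genes had such a p. Without control vector replicate 3, EML4 and MAP1B were called, with limma-trend Benjamini-Hochberg adjusted p = 0.0350 for both, TUBB6 had 0.05003 and DPYSL2 0.0704, and the median over the 41 was 0.17. The log2 fold changes themselves moved little, to between 0.83 and 0.99 for EML4, 0.61 and 0.74 for MAP1B, 0.61 and 0.73 for TUBB6 and 0.45 and 0.56 for DPYSL2 over the 6 libraries left out in turn.

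**Figure D2:**
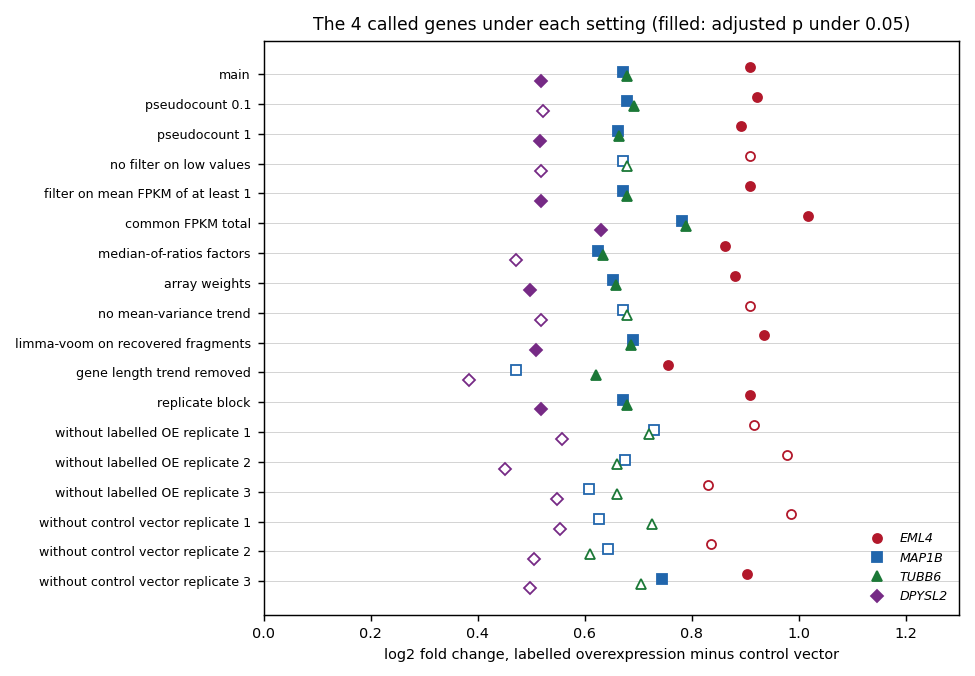
Log2 fold change (labelled overexpression minus control vector) of EML4, MAP1B, TUBB6 and DPYSL2 under each setting, with filled symbols where the adjusted p is below 0.05. Values stay between 0.38 and 1.02 throughout, while symbols turn open in most settings that leave out a library, without a filter on low values and without the mean-variance trend.

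EML4 encodes a microtubule-binding protein with a coiled-coil region and WD repeats, and is known as the partner of ALK in fusions found in lung cancer. The gene (ENSG00000143924) lies on chromosome 2 at 42169353 to 42332548, plus strand, GRCh38. Its level was 36.0, 33.0 and 40.7 FPKM in labelled overexpression replicates 1, 2 and 3, against 21.4, 17.3 and 19.1 FPKM in control vector replicates. The lowest labelled overexpression library thus lay well above the highest control. EML4 averaged 36.6 ± 3.87 FPKM in labelled overexpression and 19.2 ± 2.07 FPKM in control vector libraries (SD, n = 3 each), 1.90-fold apart. The log2 fold change was 0.91 (SE 0.13, limma-trend Benjamini-Hochberg adjusted p = 0.0262). EML4-AS1, a noncoding gene on the other strand that shares 191 exon bases with EML4 (2.29% of the EML4 exons), rose as well, at 14.5 FPKM on average in labelled overexpression and 6.11 FPKM in control vector libraries (log2 fold change 1.15, limma-trend Benjamini-Hochberg adjusted p = 0.0474). No source used here says whether fragments were counted by strand, so the pair cannot be told apart over those bases. EML1, a related protein linked to brain malformation, had 6.11 ± 0.912 FPKM in labelled overexpression and 4.61 ± 0.361 FPKM in control vector libraries (SD, n = 3 each) without passing, at a log2 fold change of 0.37.

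MAP1B and MAP1A are large neuronal MAPs, each made as a precursor that is cut into a heavy and a light chain; MAP1B is abundant in growing axons and MAP1A in mature neurons. MAP1B (ENSG00000131711, chromosome 5, 72107234 to 72209565, plus strand) stood at 42.6, 45.9 and 50.4 FPKM in labelled overexpression replicates 1, 2 and 3, against 27.1, 27.7 and 31.9 FPKM in control vector replicates. MAP1B averaged 46.3 ± 3.95 FPKM in labelled overexpression and 28.9 ± 2.66 FPKM in control vector libraries (SD, n = 3 each), and the groups did not overlap. MAP1B rose 1.60-fold, with a log2 fold change of 0.67 (SE 0.12, limma-trend Benjamini-Hochberg adjusted p = 0.0380). MAP1A had 13.7, 12.2 and 13.3 FPKM in labelled overexpression libraries, against 7.88, 6.48 and 9.14 FPKM in control vector libraries. The groups did not overlap for MAP1A either, and its log2 fold change of 0.71 (SE 0.16) was as large as that of MAP1B, but it missed the threshold (limma-trend, Benjamini-Hochberg adjusted p = 0.0660). It was called in 2 of 17 alternatives, with a common FPKM total and with array weights. MAP1S, a shorter relative found in many tissues, averaged 12.4 ± 2.17 FPKM in labelled overexpression and 12.3 ± 1.78 FPKM in control vector libraries (SD, n = 3 each), with a log2 fold change of 0.00 and a 95% interval of -0.39 to 0.39.

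The windows around the annotated start, 250 bases before it to 50 after it, are shown for EML4 and MAP1B, so that the called MAP genes can be compared at the base level; they come from RefSeq (GRCh38.p14), whose table matched 38 of the 42 genes. Capitals mark any match, on either strand, to 5 motifs. These are the TATA box core TATAAA, the CCAAT box, the GC box core, spelled GGGCGG, the AP-1 site, spelled TGANTCA, and the cAMP response element, spelled TGACGTCA. For MAP1B, which has 2 windows in that table, the outer start is shown.
EML4 (chr2:42169103-42169402, plus strand): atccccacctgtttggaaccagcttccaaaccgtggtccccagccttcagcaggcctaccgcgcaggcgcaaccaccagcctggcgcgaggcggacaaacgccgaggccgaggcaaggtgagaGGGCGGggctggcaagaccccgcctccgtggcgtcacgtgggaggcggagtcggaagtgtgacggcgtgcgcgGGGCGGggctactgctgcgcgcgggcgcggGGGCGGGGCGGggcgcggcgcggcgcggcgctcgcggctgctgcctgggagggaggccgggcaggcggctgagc
MAP1B (chr5:72107225-72107524, plus strand): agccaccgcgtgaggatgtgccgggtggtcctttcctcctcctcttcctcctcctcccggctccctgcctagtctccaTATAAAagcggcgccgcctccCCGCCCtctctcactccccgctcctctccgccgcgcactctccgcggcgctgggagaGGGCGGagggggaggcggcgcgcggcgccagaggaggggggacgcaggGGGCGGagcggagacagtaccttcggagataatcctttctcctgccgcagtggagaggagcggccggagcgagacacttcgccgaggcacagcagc
The EML4 window held 4 GGGCGG matches, of which a pair overlap, and none of the other 4 motifs. The MAP1B window held 1 TATAAA and 3 GGGCGG matches. Of 35116 promoter windows of the same length, 45% held GGGCGG, 11.5% TATAAA, 34.6% CCAAT, 7.71% TGANTCA and 1.85% TGACGTCA.

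The levels of the remaining MAPs ran from 0.239 FPKM on average over the 6 libraries for DCLK1 to 11.1 FPKM for MAP4, and 0 of them were called. DCX, doublecortin, which binds the microtubule lattice in migrating neurons, had 9.40, 10.7 and 10.7 FPKM in labelled overexpression libraries, against 6.63, 7.47 and 8.74 FPKM in control vector libraries, without overlap (log2 fold change 0.41, limma-trend Benjamini-Hochberg adjusted p = 0.211). MAP2, the classic dendritic MAP, had 8.48, 8.93 and 9.05 FPKM in labelled overexpression libraries, against 7.12, 4.96 and 7.91 FPKM in control vector libraries. MAP4, the broadly expressed MAP of dividing and resting cells, averaged 12.1 ± 0.663 FPKM in labelled overexpression and 10.1 ± 0.727 FPKM in control vector libraries (SD, n = 3 each). Neither MAP2 nor MAP4 overlapped between groups, at log2 fold changes of 0.40 and 0.25, and neither passed. MAP6, which protects microtubules from cold, spread widely in the controls, and its labelled overexpression libraries at 2.60, 1.88 and 1.87 FPKM lay within the range of the control vector libraries at 0.751, 0.959 and 2.91 FPKM. MAP9, a MAP of the mitotic spindle, averaged 2.27 ± 0.295 FPKM in labelled overexpression and 2.47 ± 0.201 FPKM in control vector libraries (SD, n = 3 each), with overlapping groups. MAP7, which recruits kinesin, lay near the filter, at 1.08 to 1.39 FPKM in labelled overexpression and 0.617 to 0.962 FPKM in control vector libraries. DCLK1, a doublecortin-like kinase, was the 1 gene below the filter, at 0.317, 0.50 and 0.223 FPKM in labelled overexpression and 0.0368, 0.186 and 0.169 FPKM in control vector libraries, on as few as 24 fragments.

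**Figure D3:**
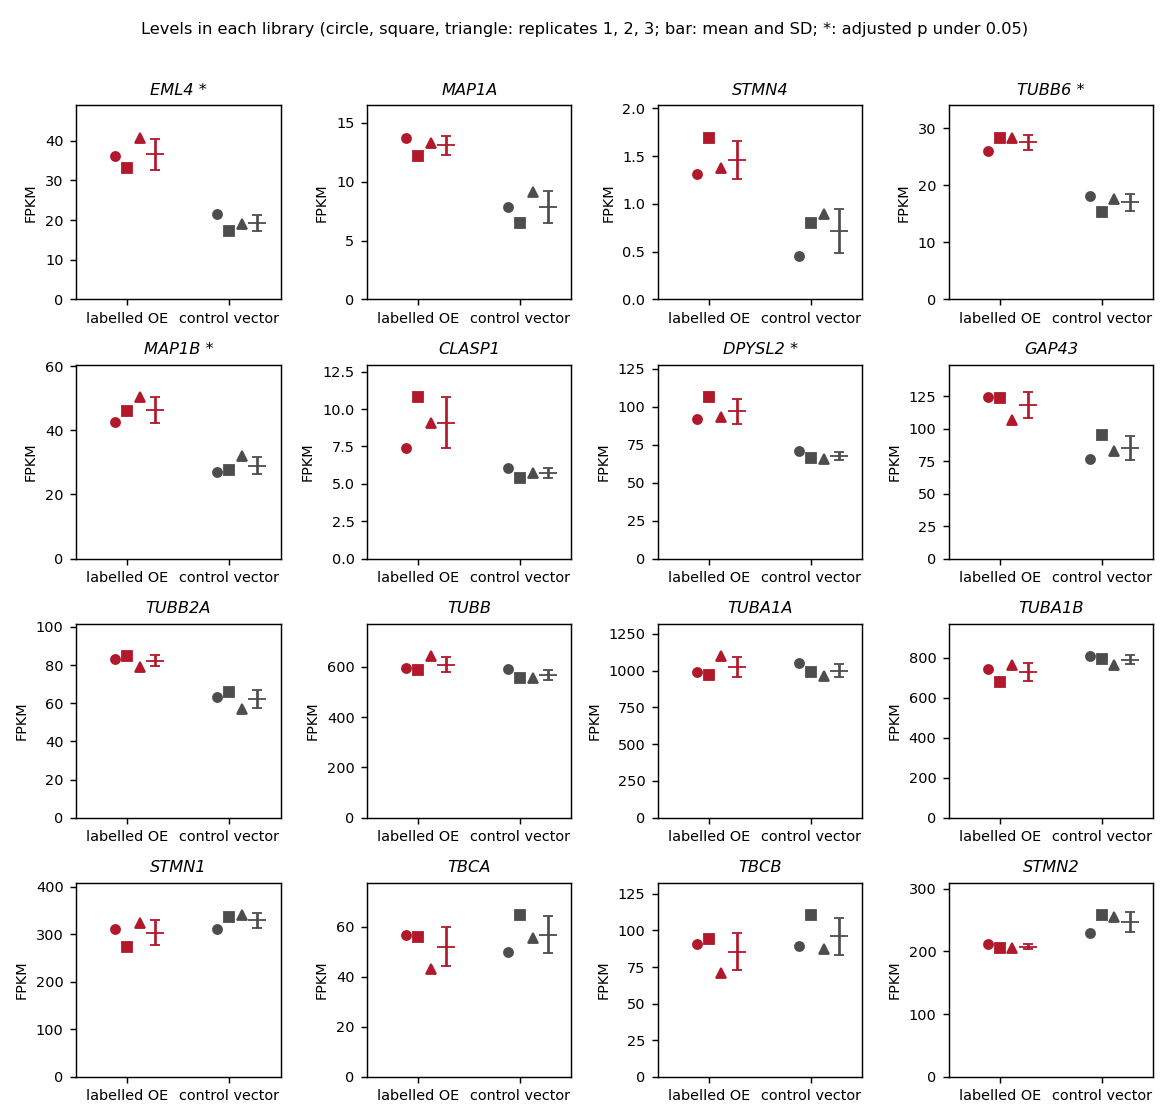
FPKM in each library for the 13 genes named by rule and the 3 next smallest p-values, labelled overexpression (red) left of control vector (grey), with mean and SD beside the points and each axis starting at 0. The 4 starred genes were called, and EML4, MAP1A, STMN4, TUBB6, MAP1B, CLASP1, DPYSL2, GAP43 and TUBB2A show separate groups with labelled overexpression above, STMN2 with it below.

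Among tubulins the highest levels were those of TUBA1A and TUBA1B, the main alpha-tubulin genes of neurons and of most cells. TUBA1A stood at 994, 973 and 1099.8 FPKM in labelled overexpression replicates 1, 2 and 3, against 1051, 988 and 962 FPKM in control vector replicates. TUBA1B stood at 747, 678 and 766 FPKM in labelled overexpression libraries, against 810.0, 796 and 766 FPKM in control vector libraries. Groups overlapped for both genes, with log2 fold changes of 0.03 (95% interval -0.17 to 0.23) and -0.12 (95% interval -0.31 to 0.08). TUBA1C, a close paralog, averaged 106 ± 6.65 FPKM in labelled overexpression and 103 ± 7.40 FPKM in control vector libraries (SD, n = 3 each). TUBA4A, expressed mainly in brain, muscle and platelets, was low and variable, at 1.27, 2.96 and 2.14 FPKM in labelled overexpression libraries, against 1.09, 1.41 and 1.25 FPKM in control vector libraries. TUBG1, the gamma-tubulin of microtubule nucleation sites, averaged 66.1 ± 2.46 FPKM in labelled overexpression and 64.4 ± 1.46 FPKM in control vector libraries (SD, n = 3 each). Of these 5 genes, 0 were called. A noncoding gene on the other strand, RP11-386G11.10, covers 44.0% of the TUBA1B exon bases and was listed at 467 FPKM on average in labelled overexpression and 511 FPKM in control vector libraries. XXbac-BPG252P9.9 covers 13.2% of the TUBB exon bases in the same way, at 1046 FPKM in labelled overexpression and 1004 FPKM in control vector libraries, so values of these pairs cannot be told apart without strand.

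All 7 beta-tubulin genes had log2 fold changes above 0, from 0.01 for TUBB4A, which lay below 0 with median-of-ratios factors, array weights, limma-voom, the length trend removed or without labelled overexpression replicate 2 or control vector replicate 3, to 0.68 for TUBB6. Of the 7, 1 was called. TUBB6 (ENSG00000176014, chromosome 18, 12307669 to 12344320, plus strand), the class V isotype, had 26.1, 28.4 and 28.3 FPKM in labelled overexpression replicates 1, 2 and 3, against 18.2, 15.4 and 17.6 FPKM in control vector replicates. Its labelled overexpression libraries lay close together and above each control. TUBB6 rose 1.62-fold to 27.6 ± 1.31 FPKM in labelled overexpression libraries, against 17.1 ± 1.47 FPKM in control vector libraries (SD, n = 3 each), with a log2 fold change of 0.68 (SE 0.12, limma-trend Benjamini-Hochberg adjusted p = 0.0380). AFG3L2, a mitochondrial protease gene on the other strand, shares 21.2% of the TUBB6 exon bases and averaged 10.1 FPKM in labelled overexpression and 6.86 FPKM in control vector libraries (log2 fold change 0.52, limma-trend Benjamini-Hochberg adjusted p = 0.172). As the strand setting is not known, TUBB6 and AFG3L2 cannot be told apart over those bases.

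TUBB2A and TUBB2B, neighbours on chromosome 6 with neuronal expression, stood next. TUBB2A had 82.99, 84.8 and 79.0 FPKM in labelled overexpression libraries, against 63.1, 66.1 and 57.1 FPKM in control vector libraries (log2 fold change 0.40, SE 0.10, limma-trend Benjamini-Hochberg adjusted p = 0.0894). TUBB2B had 89.7, 97.2 and 81.2 FPKM in labelled overexpression libraries, against 75.9, 79.2 and 65.2 FPKM in control vector libraries (log2 fold change 0.28). Neither gene overlapped between groups and neither passed, although TUBB2A did with a common FPKM total. Levels of the pair are uncertain as single genes, since 48.9% of the 100-base stretches of TUBB2A transcripts and 42.4% of those of TUBB2B occur in transcripts of another gene, for the most part each other's. In contrast, 0% of the TUBB6, EML4, MAP1B and DPYSL2 stretches do, in a comparison that leaves out overlaps on the other strand. The ends of the coding sequences show this, and carry the tail by which isotypes differ; they are from GENCODE v29 transcripts on GRCh38, with 32 codons that encode the same residues in all 7 isotypes in lower case, and capitals from the first codon whose residue differs among them to the stop codon.
TUBB6 (chr18:12325984-12326130, plus strand): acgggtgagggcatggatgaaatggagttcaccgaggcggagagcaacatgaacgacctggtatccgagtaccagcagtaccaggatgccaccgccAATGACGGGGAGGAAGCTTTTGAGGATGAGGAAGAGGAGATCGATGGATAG
TUBB2A (chr6:3153863-3154006, minus strand): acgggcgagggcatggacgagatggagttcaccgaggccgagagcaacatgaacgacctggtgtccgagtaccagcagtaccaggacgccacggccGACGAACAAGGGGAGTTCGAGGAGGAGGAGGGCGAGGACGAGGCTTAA
TUBB2B (chr6:3224751-3224894, minus strand): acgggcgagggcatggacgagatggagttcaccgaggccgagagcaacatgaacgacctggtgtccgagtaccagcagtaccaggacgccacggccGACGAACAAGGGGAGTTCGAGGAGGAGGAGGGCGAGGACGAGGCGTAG
TUBB (chr6:30724257-30724397, plus strand): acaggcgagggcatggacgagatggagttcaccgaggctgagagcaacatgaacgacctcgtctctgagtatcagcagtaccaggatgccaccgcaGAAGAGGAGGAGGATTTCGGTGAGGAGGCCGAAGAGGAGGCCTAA
Before the stop, the capitals take 16 codons in TUBB6, 15 in TUBB2A and TUBB2B and 14 in TUBB. Over the whole coding sequence TUBB2A and TUBB2B were identical at 98.1% of aligned bases, while TUBB6 was identical to TUBB2A at 86.2% and to TUBB at 80.9%.

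The abundant beta isotypes differed less between groups. TUBB, the general class I gene, stood at 596, 589 and 644 FPKM in labelled overexpression replicates 1, 2 and 3, against 591, 556 and 556 FPKM in control vector replicates, with overlap and a log2 fold change of 0.10. TUBB4B, another widely expressed isotype, averaged 338 ± 16.9 FPKM in labelled overexpression and 293 ± 20.1 FPKM in control vector libraries (SD, n = 3 each), and its labelled overexpression libraries lay above each control without passing (log2 fold change 0.21, limma-trend Benjamini-Hochberg adjusted p = 0.270). TUBB3, the isotype used as a marker of neurons, averaged 37.5 ± 2.45 FPKM in labelled overexpression and 31.7 ± 2.81 FPKM in control vector libraries (SD, n = 3 each), with a log2 fold change of 0.24. A protein-coding gene on the same strand, RP11-566K11.2, contains 21.3% of the TUBB3 exon bases and was listed at 99.3 FPKM in labelled overexpression and 83.9 FPKM in control vector libraries, so TUBB3 fragments may be divided between them. TUBB4A, an isotype of neurons and glia, averaged 24.7 ± 2.90 FPKM in labelled overexpression and 24.5 ± 2.65 FPKM in control vector libraries (SD, n = 3 each).

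Summed over isotypes, beta-tubulin came to 1214, 1199 and 1215 FPKM in labelled overexpression replicates 1, 2 and 3, against 1122, 1064 and 1021 FPKM in control vector replicates. Alpha-tubulin came to 1852, 1764 and 1966 FPKM in labelled overexpression libraries, against 1970.1, 1893 and 1824 FPKM in control vector libraries. The beta sum thus lay higher without overlap, at a ratio of 1.13, and the alpha sums overlapped, at a ratio of 0.982 that was above 1, at 1.06, with a common FPKM total. A quantity that no scaling between libraries can move is the ratio of the 2 sums within a library, which was 0.656, 0.679 and 0.618 in labelled overexpression and 0.570, 0.562 and 0.560 in control vector libraries. TUBB6 made up 2.15%, 2.37% and 2.33% of the beta sum in labelled overexpression libraries, against 1.62%, 1.45% and 1.73% in control vector libraries. TUBB2A made up 6.80% ± 0.286 in labelled overexpression and 5.81% ± 0.349 in control vector libraries (SD, n = 3 each), also without overlap. How fragments divide between TUBB2A and TUBB2B is uncertain, given the stretches they share, and so is this share. Within alpha-tubulin, TUBA1A took 53.7% to 55.9% of the sum in labelled overexpression and 52.2% to 53.4% in control vector libraries, and TUBA1B took 38.5% to 40.3% in labelled overexpression and 41.1% to 42.1% in control vector libraries. Shares of a sum depend on each other, and no test was made of them.

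**Figure D4:**
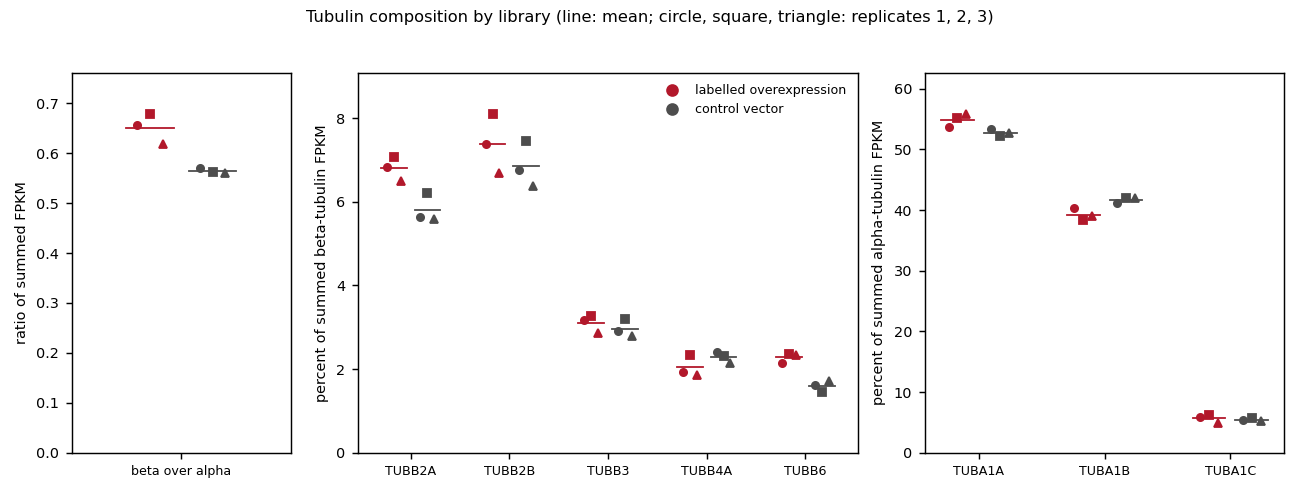
Tubulin composition in each library: the ratio of summed beta- to summed alpha-tubulin FPKM, the share of 5 beta isotypes in the beta sum and of 3 alpha isotypes in the alpha sum, with labelled overexpression in red left of control vector in grey and lines at the means. The ratio, TUBB2A, TUBB6 and TUBA1A lie higher and TUBA1B lower in labelled overexpression libraries without overlap, while TUBB2B, TUBB3, TUBB4A and TUBA1C overlap. The division between TUBB2A and TUBB2B is uncertain, as their transcripts share many stretches.

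The folding cofactors, which assemble the tubulin dimer after the chaperonin, did not differ by more than their spread. TBCA, which holds beta-tubulin, had 56.9, 56.0 and 43.0 FPKM in labelled overexpression libraries, against 50.1, 64.7 and 55.4 FPKM in control vector libraries. TBCB, which holds alpha-tubulin, had 90.8, 94.4 and 71.1 FPKM in labelled overexpression libraries, against 89.7, 110.5 and 87.5 FPKM in control vector libraries. In both, labelled overexpression replicate 3 was the lowest of the 6 libraries. Their log2 fold changes were -0.13 (95% interval -0.45 to 0.19) and -0.17 (95% interval -0.48 to 0.14). TBCA had 0.0011 without labelled overexpression replicate 3 and -0.03 without control vector replicate 2, and TBCB had -0.04 and -0.06 without these libraries. TBCD, which takes part in joining the dimer, averaged 11.1 ± 0.892 FPKM in labelled overexpression and 10.2 ± 1.98 FPKM in control vector libraries (SD, n = 3 each).

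Stathmins went in different directions and 0 of 4 were called. STMN1, the general stathmin of proliferating cells, had 312, 274 and 324 FPKM in labelled overexpression libraries, against 312, 336 and 340.4 FPKM in control vector libraries, with overlapping groups and a log2 fold change of -0.12. STMN2, the neuronal stathmin of growth cones, had 211, 206 and 206 FPKM in labelled overexpression libraries, against 229, 258 and 254 FPKM in control vector libraries. Its labelled overexpression libraries agree closely and lie below each control, at a log2 fold change of -0.25 (SE 0.09, limma-trend Benjamini-Hochberg adjusted p = 0.194), which was -0.14 with a common FPKM total and -0.30 to -0.22 with a library left out. STMN3, another neuronal stathmin, averaged 33.7 ± 4.24 FPKM in labelled overexpression and 29.8 ± 2.89 FPKM in control vector libraries (SD, n = 3 each). STMN4, a brain stathmin, had 1.31, 1.69 and 1.38 FPKM in labelled overexpression libraries, against 0.458, 0.805 and 0.895 FPKM in control vector libraries (log2 fold change 0.70, SE 0.26, limma-trend Benjamini-Hochberg adjusted p = 0.212). The fitted STMN4 value depends on how low levels are treated, at 0.52 with a pseudocount of 1, 0.96 with a pseudocount of 0.1 and 1.07 by limma-voom, with no call in any of 17 alternatives.

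Among CRMPs, cytosolic proteins that act downstream of semaphorin signals, DPYSL2 was called. It encodes the member that binds tubulin dimers and promotes axon formation (ENSG00000092964, chromosome 8, 26514031 to 26658178, plus strand). DPYSL2 had 91.8, 106 and 93.1 FPKM in labelled overexpression replicates 1, 2 and 3, against 70.8, 66.2 and 65.6 FPKM in control vector replicates. The groups stood clear of each other, at 97.1 ± 8.15 FPKM in labelled overexpression and 67.5 ± 2.85 FPKM in control vector libraries (SD, n = 3 each). DPYSL2 rose 1.44-fold, with a log2 fold change of 0.52 (SE 0.10, limma-trend Benjamini-Hochberg adjusted p = 0.0451). With a pseudocount of 0.1 the limma-trend, Benjamini-Hochberg adjusted p for DPYSL2 was 0.0504, and with median-of-ratios factors it was 0.0625. Its relative DPYSL3 averaged 41.6 ± 1.31 FPKM in labelled overexpression and 39.8 ± 0.823 FPKM in control vector libraries (SD, n = 3 each), a log2 fold change of 0.06 with a 95% interval of -0.16 to 0.28. CRMP1 averaged 59.6 ± 5.37 FPKM in labelled overexpression and 60.1 ± 0.686 FPKM in control vector libraries (SD, n = 3 each), a log2 fold change of -0.02. DPYSL5 had 51.9, 53.7 and 48.0 FPKM in labelled overexpression libraries, against 32.7, 48.8 and 49.2 FPKM in control vector libraries, where replicate 1 was low and the others lay within the range of the labelled overexpression libraries. DPYSL4 averaged 7.78 ± 0.700 FPKM in labelled overexpression and 6.36 ± 1.51 FPKM in control vector libraries (SD, n = 3 each).

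The plus-end proteins bind growing microtubule tips. CLASP1, which promotes rescue of shrinking microtubules, had 7.38, 10.8 and 9.08 FPKM in labelled overexpression libraries, against 6.07, 5.41 and 5.70 FPKM in control vector libraries. CLASP2, its paralog, had 5.09, 5.49 and 6.03 FPKM in labelled overexpression libraries, against 4.25, 4.40 and 3.70 FPKM in control vector libraries. Neither overlapped between groups, and with log2 fold changes of 0.61 (SE 0.17, limma-trend Benjamini-Hochberg adjusted p = 0.126) and 0.39 (SE 0.17, adjusted p = 0.272) neither passed. MAPRE1, the tip tracker onto which many others load, had 70.2, 65.0 and 72.6 FPKM in labelled overexpression libraries, against 58.3, 49.0 and 66.1 FPKM in control vector libraries, with overlap through control vector replicate 3. MAPRE2 and MAPRE3, its relatives, had log2 fold changes of -0.12 and 0.05, and the highest MAPRE2 value, 12.5 FPKM, was again in control vector replicate 3. GAP43, a membrane protein of the growth cone and a standard companion of these genes in growing axons, had 125, 124 and 107 FPKM in labelled overexpression libraries, against 76.8, 94.98 and 82.8 FPKM in control vector libraries. The GAP43 groups did not overlap (log2 fold change 0.48, SE 0.11, limma-trend Benjamini-Hochberg adjusted p = 0.0813), and it was called with a common FPKM total and with array weights.

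Fold changes in these libraries rose with gene length, and many MAP genes are long. Gene length here counts exon bases, 8354 for EML4, not the span of the gene on the chromosome. Across the 13984 tested genes Spearman's rho between log2 fold change and the gene length of the table was 0.22, and across the 41 genes it was 0.28, a description over genes that share the same 6 libraries. The median log2 fold change was -0.05 in 2622 genes of up to 1000 bases and 0.20 in 1192 genes of over 10000 bases. The 8 microtubule genes of over 10000 bases had a median of 0.41, and the 10 genes of 6000 to 10000 bases 0.25 against 0.13 for the 2804 tested genes of that class. In the class of 4000 to 6000 bases the 7 microtubule genes lay lower, at 0.04 against 0.06 for 2706 tested genes. The 15 genes of 2000 to 4000 bases had 0.17 against 0.02 for 3284, and GAP43, the 1 gene of 1000 to 2000 bases, had 0.48 against -0.03 for 1376. With the length trend removed from each library, the median was 0.13 over the 41 genes and -0.02 over all tested genes. EML4 and TUBB6 were then called, at log2 fold changes of 0.76 and 0.62 (limma-trend Benjamini-Hochberg adjusted p = 0.0289 and 0.0465), while MAP1B with 0.47 had an adjusted p of 0.0710 and DPYSL2 with 0.38 an adjusted p of 0.116.

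**Figure D5:**
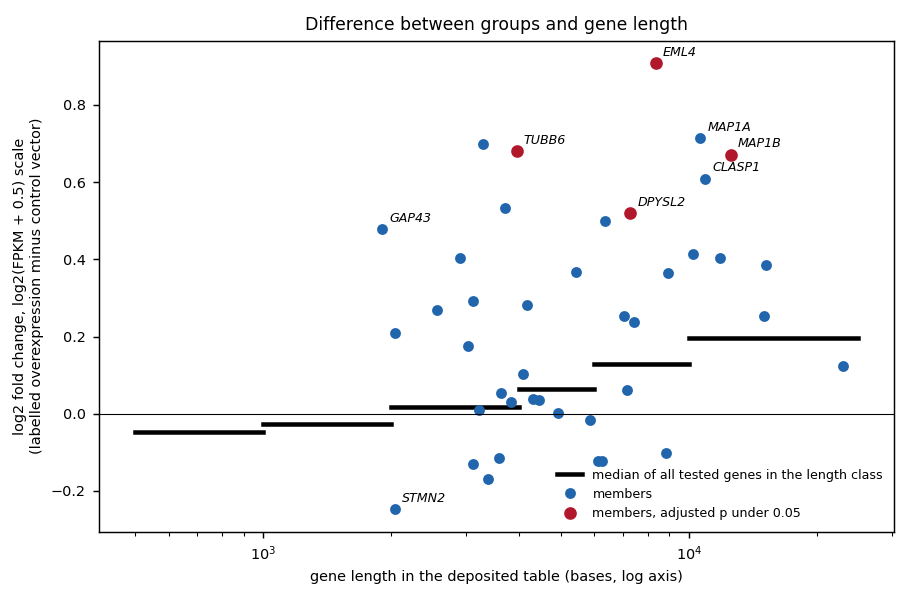
Log2 fold change (labelled overexpression minus control vector, log2(FPKM + 0.5) scale) of the 41 tested genes against gene length in exon bases on a log axis, with black bars at the median of all tested genes in each length class. The bars climb from -0.05 in the shortest class to 0.20 in the longest, and the 4 called genes (red) lie above the bar of their class.

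A further 96 genes of microtubule biology were counted beside these: other tubulins, the gamma-tubulin complex, further MAPs, plus- and minus-end proteins, further folding factors, severing enzymes and tubulin-modifying enzymes. Of these 66 were tested, TBCE on 2 rows, and 0 were called by limma-trend, while 6 were higher and 1 lower at an unadjusted p below 0.05, against 10.4% and 7.34% of all tested genes. For comparison, 13 of the 41 genes were higher and 1 lower at that level. Without MAP7 and STMN4, which passed the filter only through labelled overexpression libraries, 12 of 39 were higher and 1 lower. The median log2 fold change of the 96-gene set was 0.11 over its 67 tested rows. The 3 of smallest p were CKAP5, a microtubule polymerase, PRC1, a bundler of the spindle midzone, and NAV2, a neuron navigator of the plus end. CKAP5 had 23.4, 23.0 and 30.3 FPKM in labelled overexpression libraries, against 13.8, 18.1 and 16.9 FPKM in control vector libraries (log2 fold change 0.64, limma-trend Benjamini-Hochberg adjusted p = 0.0873). PRC1 averaged 19.8 ± 1.54 FPKM in labelled overexpression and 12.8 ± 2.92 FPKM in control vector libraries (SD, n = 3 each; limma-trend, Benjamini-Hochberg adjusted p = 0.105). NAV2 averaged 3.01 ± 0.425 FPKM in labelled overexpression and 1.37 ± 0.503 FPKM in control vector libraries (SD, n = 3 each; limma-trend, Benjamini-Hochberg adjusted p = 0.121). By group, 10 plus- and minus-end genes tested had a median of 0.39 with 10 above 0, against 56.8% of all tested genes above 0. The 16 further MAPs had 0.12 with 13 above 0, and 9 gamma-tubulin complex genes 0.10 with 7. The 7 severing enzymes had 0.29 with 6 above 0, and 14 modifying enzymes 0.08 with 8. The 8 rows of folding factors had -0.01 with 2 above 0, and 3 other tubulins -0.29 with 1. The 1 gene lower at an unadjusted p below 0.05, named after its values were seen, was HDAC6, the tubulin deacetylase, at 4.56 ± 0.663 FPKM in labelled overexpression and 6.74 ± 1.25 FPKM in control vector libraries (SD, n = 3 each) (limma-trend, Benjamini-Hochberg adjusted p = 0.210).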

How the data were processed

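Gene-level FPKM of 6 SH-SY5Y libraries, 3 per group, were used as deposited. Per the labels' protocols, total RNA went through a low-input SMART-seq kit and paired-end sequencing. Per the submitters' processing notes, STAR 2.7.9 and featureCounts 2.0.1 were used with GRCh38.p13 and hg38; options, strand setting and treatment of shared fragments are not given in the sources used here. The deposited FPKM multiplied by the length in kilobases sum to 1e+06 per library, and values are multiples of 0.01 fragments within 0.001 fragments (values up to 1000 fragments), of which 44.2% to 49.0% are whole, so the main test uses no count model. Depth is that of these recovered fragments. The gene length, another column of the deposited table, is per the file headers and counts exon bases.

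The fit was limma 3.58.1 in R 4.3.3 (limma-trend, log2(FPKM + 0.5), no covariate), with figures and summaries in Python 3.11.15, and was run on simulated data. There it recovered 10 of 50 genes changed 1.5-fold, 36 of 50 at 2-fold and 50 of 50 at 4-fold, with 11 of 153 calls false. The changes were set only in genes of higher mean FPKM, so recovery at low levels, as of MAP7 or STMN4, was not measured. A gene that did not pass may therefore still differ by 1.5-fold. Alternatives changed the pseudocount, filter, scaling, weights, trend, length correction, block and libraries, and used limma-voom on recovered fragments. Stretches of 100 bases were compared across GENCODE v29 transcripts as transcribed, so overlaps on the other strand were not counted. Values in every library are given for called genes, the 4 largest rises and falls and the 4 highest levels, and for others where they show the spread. Genes and lists were chosen with earlier results of these data known. Whether shared replicate numbers pair libraries is not labelled, and the main fit did not pair them. Deviations of same-numbered libraries correlated at -0.02, 0.11 and 0.12, and those of unlike-numbered libraries at -0.18 to 0.10. With 3 libraries per group, these values cannot decide whether the libraries were paired.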

Additional observations from a re-analysis of the deposited data

How the results depend on the processing

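With all genes, 159 were called (74 higher, 85 lower). The count was 265 with array weights, 0 without a filter on low values or without the mean-variance trend (3538 and 2304 genes at an unadjusted p below 0.05, and 127 called by limma-voom) and 0 to 124 with a library left out. The split was 181 higher and 52 lower with a common FPKM total, which moved the median of all genes by 0.10, 59 and 119 with median-of-ratios factors, 79 and 48 with limma-voom and 45 and 107 with the length trend removed. Of the 41 microtubule genes 4 were called, 7 with a common FPKM total, 6 with array weights, 4 by limma-voom, 2 with the length trend removed, 0 without a filter or without the trend (16 and 12 higher at an unadjusted p below 0.05) and 0 to 2 with a library left out. Their median log2 fold change of 0.25 was 0.36 with a common total, 0.13 with the length trend removed and 0.17 to 0.26 with a library left out. The further microtubule genes had 0 calls in each setting. The CDKN2B-AS1 ratio of 1.33 was 1.44 with a common total and 1.19 to 1.44 with a library left out. The beta-tubulin sum ratio of 1.13 was 1.22 with a common total, 1.09 with median-of-ratios factors and 1.11 to 1.16 with a library left out, and the alpha ratio of 0.982 was 1.06 with a common total; these 2 scalings of the sums were chosen after seeing the data. Of the 41 log2 fold changes, 33 lay above 0. The count was 34 with a common total (CRMP1 changed sign), 28 with median-of-ratios factors (5 changed), 31 with array weights (2), 31 by limma-voom (2), 25 with the length trend removed (8, among them TUBB4A, MAP1S, TUBG1, TBCD and DPYSL3) and 31 to 34 with a library left out. Among genes given in every library, the sign changed for TUBA1A (-0.016 with median-of-ratios factors, -0.00093 with array weights, -0.026 with the length trend removed, -0.023 to 0.067 with a library left out) and for TBCA (-0.21 to 0.0011 with a library left out). Over 17 alternatives STMN1 ran from -0.24 to -0.01, STMN2 from -0.30 to -0.14, TBCB from -0.25 to -0.04, TUBA1B from -0.17 to -0.0042, TUBB from 0.04 to 0.21 and STMN4 from 0.52 to 1.07. With the replicate block, that is the replicate number as a term, 229 genes and the same number, 4, of microtubule genes were called. Whether the numbers pair the libraries could not be decided. The causes of these changes were not tested. Genes of a few FPKM, such as DCLK1, STMN4 and TUBA4A, rest on as few as 24, 68 and 129 fragments in a library, which limits their precision.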
